A study of Homo sapiens with 6 samples.

Results

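The regions described here are the 1056 widest of 58582 regions called in HSC3 cells treated with a control siRNA, in the list labelled H3K4me3. They were chosen as the regions on chromosomes 1 to 22 and X that spanned at least 3000 bp, and are called wide regions below. Together they covered 4.29 Mb. Over all 4 deposited lists there were 152902 regions.

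HSC3 is an established line of human oral squamous cell carcinoma (OSCC), and the cells were taken 72 h after transfection with either a control siRNA or an siRNA against the long noncoding RNA DLEU1 (siDLEU1). Chromatin was immunoprecipitated with antibodies to H3K27ac or H3K4me3 and sequenced, and the authors called regions in each library. There was 1 library for each siRNA and mark, from 1 cell line and with 1 of the study's siRNAs to DLEU1. Without replicates no test between the siRNAs could be made. The peak lists do not measure DLEU1 RNA, and the knockdown could not be checked in them.

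H3K4me3, trimethylation of lysine 4 of histone H3, is known as a mark of transcription start sites (TSSs), and is laid down by SET1 and MLL complexes, mainly at promoters in CpG islands. H3K27ac, acetylation of lysine 27, is made by the acetyltransferases p300 and CBP and is known from active promoters and from enhancers far from any TSS. Unusually broad H3K4me3 stretches have been linked to genes of cell identity and to tumour suppressor genes.

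The lists went against this background, and their labels are therefore given as labels throughout. In the control list labelled H3K4me3, 20.5% of regions held a TSS and 22.5% were CpG-island-like (more than 50% GC and a CpG content over 0.6 of that expected from the base composition). In the control list labelled H3K27ac, 58.0% of 19705 regions held a TSS and 72.8% were CpG-island-like. After siDLEU1 the same shares were 21.0% and 24.0% in the list labelled H3K4me3, against 55.5% and 76.7% in the list labelled H3K27ac. Of the control regions labelled H3K4me3 that lay over 1 kb from any TSS (36479), 8.48% were overlapped by a control region labelled H3K27ac. Conversely, 81.9% of the 3683 control regions labelled H3K27ac over 1 kb from a TSS were overlapped by the list labelled H3K4me3. Whether the antibodies or labels of the libraries were exchanged was not tested, and the wide regions cannot be called H3K4me3 domains from these data alone.

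The cell type did fit its label. All 12 squamous epithelial markers had a TSS in a control region labelled H3K4me3, and 3 of them (KRT17, LAMB3 and TP63) had one in a wide region. For fibroblast markers this was 1 of 8, for leukocyte markers 2 of 6, for endothelial markers 1 of 4 and for melanocyte markers 1 of 5, and none of these had a wide region at its TSS. Over all 24135 genes used, 10846 had a TSS in such a region, and 5.36% of the 10846 had one in a wide region. The lists other than the squamous one had too few genes with a region for their lack of wide ones to be read.

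The sequence of the wide regions is shown here because CpG content was one of the measures on which the 2 labels differed. The windows below are read from GRCh37 (hg19), plus strand, and are centred on the summits of the 3 wide regions at TNS4 (chr17:38646457-38646607, intronic), near LINC00592 (chr12:52542038-52542188, between genes) and at MYOF (chr10:95227984-95228134, intronic). Each is 151 bases long, and every CG is in capitals.
TNS4: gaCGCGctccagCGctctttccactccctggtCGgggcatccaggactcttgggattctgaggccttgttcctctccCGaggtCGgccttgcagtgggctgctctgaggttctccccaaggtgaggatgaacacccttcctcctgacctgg
LINC00592: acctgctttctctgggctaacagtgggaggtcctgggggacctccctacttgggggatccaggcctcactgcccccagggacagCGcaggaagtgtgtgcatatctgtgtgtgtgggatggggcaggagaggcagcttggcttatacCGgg
MYOF: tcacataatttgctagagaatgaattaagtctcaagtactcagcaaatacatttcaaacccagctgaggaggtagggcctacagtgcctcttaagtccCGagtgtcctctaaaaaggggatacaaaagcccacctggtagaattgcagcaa
The 3 windows held 6, 2 and 1 CG, or 0.413, 0.146 and 0.139 of the number expected from their bases. Over their whole width, wide regions without a TSS had a median CpG ratio of 0.223.

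For contrast, the 200 bases directly upstream of the canonical TSS are shown for the 2 widest CpG-island-like wide regions in which this stretch lay inside the region and outside every annotated exon. They belong to IRX4 (chr5:1883040-1883239, minus strand), an Iroquois homeobox gene, and CDK6 (chr7:92465888-92466087, minus strand), a kinase of the G1 phase. The IRX4 stretch also lies in an intron of longer IRX4 transcripts, and that of CDK6 in an intron of CDK6-AS1 on the other strand.
IRX4: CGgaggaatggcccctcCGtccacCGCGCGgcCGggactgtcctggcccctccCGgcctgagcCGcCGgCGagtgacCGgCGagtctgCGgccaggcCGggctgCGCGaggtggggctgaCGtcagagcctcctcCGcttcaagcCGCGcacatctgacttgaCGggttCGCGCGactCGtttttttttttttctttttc
CDK6: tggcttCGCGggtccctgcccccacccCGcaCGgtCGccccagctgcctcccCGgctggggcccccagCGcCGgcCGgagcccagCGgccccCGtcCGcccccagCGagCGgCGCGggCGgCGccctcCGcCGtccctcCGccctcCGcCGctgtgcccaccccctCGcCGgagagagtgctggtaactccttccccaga
Each held 25 CG. The IRX4 region was 8862 bp wide, with 52.6% of its bases under control regions labelled H3K27ac, and the CDK6 region was 5028 bp wide with 99.8%.

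The wide regions also held 11 miRNA genes in 9 regions. The mature products of the best known of them are printed from RefSeq (GRCh38.p14), 5′ to 3′, with the seed (bases 2 to 8) in capitals.
hsa-miR-21-5p: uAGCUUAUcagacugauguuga
hsa-miR-23a-3p: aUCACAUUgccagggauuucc
hsa-miR-27a-3p: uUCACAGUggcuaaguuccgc
hsa-miR-141-3p: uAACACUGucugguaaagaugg
hsa-miR-200c-3p: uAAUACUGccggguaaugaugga
MIR21, known as an oncogenic miRNA, lay in the VMP1 region of 12147 bp. MIR23A and MIR27A shared the MIR23AHG region of 7126 bp. MIR141 and MIR200C, members of the miR-200 family that is known to hold cells in an epithelial state, shared the MIR200CHG region of 3650 bp. None of the 5 seeds was the same as another. RefSeq gave a mature sequence for 10 of the 11 genes.

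The median was 3678.5 bp and the widest region spanned 16401 bp, at NEAT1. The 3 members just inside the threshold were 3001, 3001 and 3002 bp wide, near RPS6KA1, at ASAP1 and at YY1. Their fold enrichments were 30.6, 17.8 and 12.4, and siDLEU1 regions of the same label covered 92.9%, 100% and 44.97% of their bases. The 3 regions just outside it were 2997, 2997 and 2996 bp wide, with fold enrichments of 25.2, 14.4 and 9.59 and covers of 89.7%, 64.97% and 87.9%. The values on both sides of the threshold overlapped. The members were also strong: the median fold enrichment at the summit ranked at percentile 94.8 of the list, and the median number of fragments at the summit was 157, against 47 over all regions. Width and strength come from the same library, so this is a description of how the members were chosen.

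A TSS of a protein-coding or lncRNA gene lay inside 498 wide regions, or 47.2% (95% Wilson interval 44.2 to 50.2), against 20.5% of all control regions labelled H3K4me3. In the next narrower class, of 2000 to under 3000 bp, it was 47.2% as well (45.2 to 49.2). Any annotated transcript start counted here, and with 1 TSS per gene, at the outermost 5′ end, the share was 28.4%. The 498 regions held the TSSs of 581 genes, 483 protein-coding and 98 lncRNA. Single genes accounted for 401 of the regions, while 90 held TSSs of 2 genes and 7 of 3.

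The other 558 wide regions held no TSS. Of these, 136 overlapped an exon of a gene body, 188 lay in introns only and 234 lay between genes. Their median distance to the nearest TSS was 11281.5 bp (interquartile range 3851 to 31138). They were as wide as those with a TSS, with medians of 3666.5 and 3700 bp, and had slightly fewer fragments at the summit, 145.5 against 171. CpG-island-like sequence made up 25.1% of the regions with a TSS and 2.33% of those without.

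**Figure D1:**
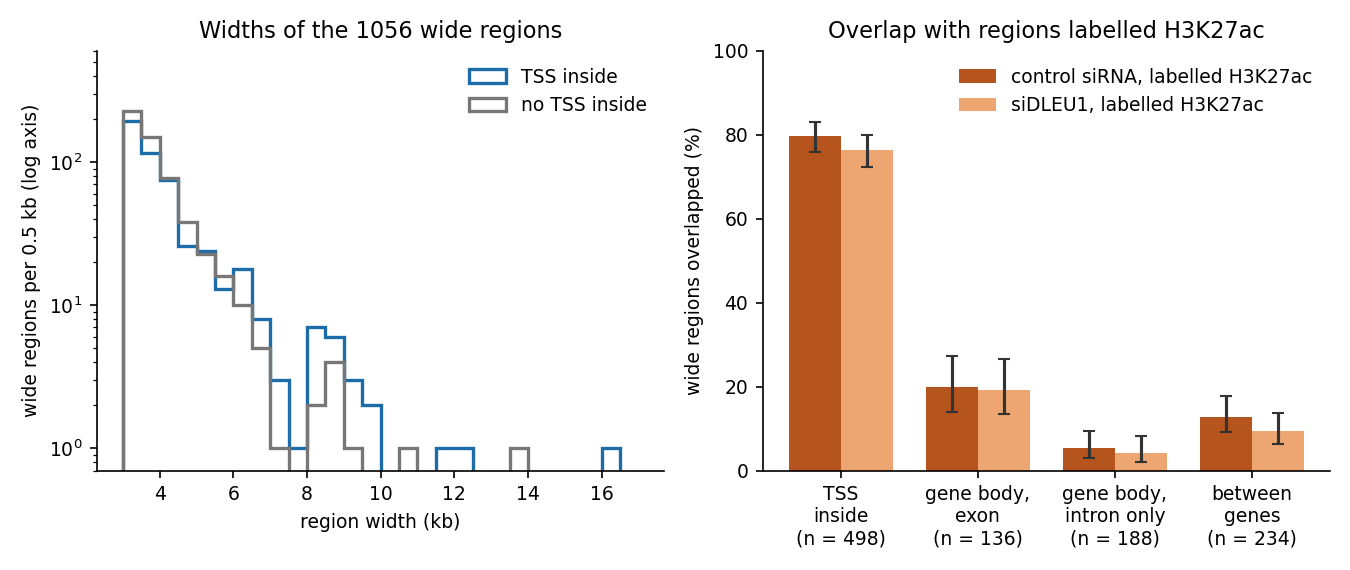
Left, number of wide regions per 0.5 kb of width (log axis) with and without a TSS inside. Right, percent of wide regions in each location overlapped by at least 1 bp by a region labelled H3K27ac, control siRNA or siDLEU1, with 95% Wilson intervals that cover the counting of regions only. Both classes become rarer with width, with 369 regions of at least 4 kb in all, and 79.7% of regions with a TSS and 5.32% of those in introns were overlapped in the control.

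A minority of the wide regions carried the other mark. A control region labelled H3K27ac overlapped 464 of them (43.9%, 41.0 to 46.9), against 33.1% of all control regions labelled H3K4me3. With a TSS the share was 79.7% (76.0 to 83.0), and without one 12.0% (9.57 to 14.97). Within gene bodies it was 19.9% where an exon was overlapped and 5.32% in introns only, and between genes it was 12.8%. In the 2000 to under 3000 bp class, 85.3% of regions with a TSS were overlapped (83.1 to 87.3), and this interval did not overlap that of the wide regions.

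The overlap was also partial. Over the wide regions with a TSS, a median of 45.4% of bases (40.6 to 49.8) lay under control regions labelled H3K27ac, against 74.5% (72.1 to 76.2) in the 2000 to under 3000 bp class. The median widths of these 2 sets were 3700 and 2342 bp. Only 119 of the 19705 control regions labelled H3K27ac reached 3000 bp, so a lower percent in wider regions is partly built in. At least 50% of the bases were covered in 45.2% of the wide regions with a TSS. The AP-1 motif TGANTCA, which reads alike on both strands, was found within 100 bp of the summit in 3.50% of wide regions (2.55 to 4.79) and in 5.05% of all control regions labelled H3K4me3. In the 2000 to under 3000 bp class it was 4.39% (3.63 to 5.30). Among regions with a TSS it was 2.81% (1.68 to 4.66) of the wide ones and 2.31% of all.

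The position of both marks around the TSS was followed in 232 wide regions that held 1 gene and its canonical TSS. These regions extended further into the gene than ahead of it, with medians of 2674 bp downstream and 1228.5 bp upstream, and 171 of them (73.7%, 67.7 to 79.0) were longer downstream. Regions labelled H3K27ac covered the position 200 bp downstream in 85.8% of them, 2 kb downstream in 29.3% and 2 kb upstream in 3.88%. The control list labelled H3K4me3 covered 2 kb downstream in 74.1% and 2 kb upstream in 36.2%. This reach is partly fixed, because the regions were chosen as at least 3000 bp wide in that list, and it does not compare the spread of the 2 marks. In the 558 wide regions without a TSS, the list labelled H3K27ac covered at most 6.09% at any position within 7 kb of the centre.

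**Figure D2:**
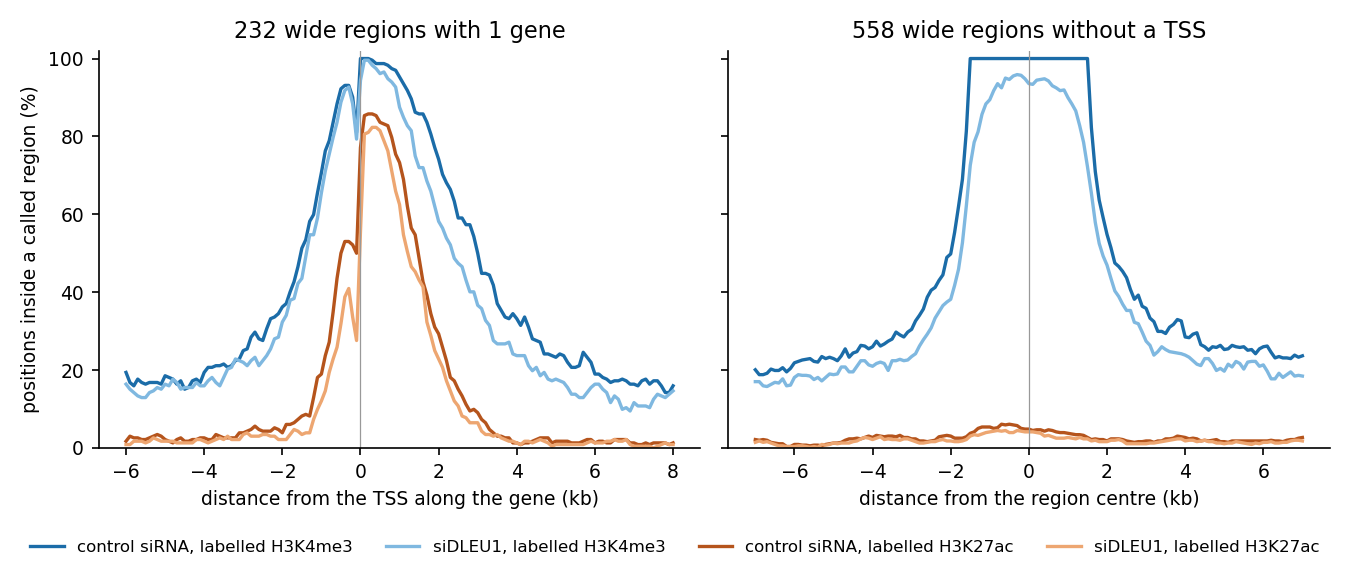
Percent of positions that lay inside a called region of each of the 4 lists, by distance in kb from the canonical TSS in the direction of transcription (left) or from the centre of wide regions without a TSS (right). The curves labelled H3K27ac form a narrow peak just downstream of the TSS and stay near the axis on the right, and the control curve labelled H3K4me3 is at 100% at the TSS or centre because these positions lie in the chosen regions.

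Of the 10 widest regions 7 held a TSS, and 3 of these were named for lncRNA genes (NEAT1, MALAT1 and MIR31HG). NEAT1, the scaffold RNA of paraspeckles, had the widest (chr11:65183590-65199990). After siDLEU1, 90.5% of its bases lay under 6 regions labelled H3K4me3, the widest 7663 bp. Regions labelled H3K27ac covered 37.8% of it in the control and 35.3% after siDLEU1. MALAT1, a nuclear lncRNA that neighbours NEAT1, had a region of 9761 bp that was covered to 93.9% by the siDLEU1 list labelled H3K4me3. Its cover by the mark labelled H3K27ac was 75.8% and 71.6%, the highest of the 10 under both siRNAs.

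VMP1, a gene of autophagosome formation that hosts MIR21, had a region of 12147 bp. The siDLEU1 list labelled H3K4me3 covered 96.2% of it, and the lists labelled H3K27ac covered 35.0% in the control and 36.2% after siDLEU1. One region of 11522 bp spanned the TSSs of KRT15 and KRT19, keratins of basal and simple epithelial cells. It was covered to 93.1% after siDLEU1 by the list labelled H3K4me3, and to 19.8% and 13.0% by those labelled H3K27ac. AJUBA, a LIM protein of cell junctions and Hippo signalling, had 9735 bp covered to 96.7%, with 38.3% and 38.0% for the mark labelled H3K27ac. MIR31HG, the host gene of MIR31, had 9448 bp covered to 91.2%, with 37.7% and 31.0%.

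PLAU, which encodes the urokinase plasminogen activator, had the largest difference in the mark labelled H3K27ac among the 10. Of its 9158 bp, 91.3% lay under siDLEU1 regions labelled H3K4me3, but the cover labelled H3K27ac was 49.8% in the control and 17.4% after siDLEU1. The other 3 of the 10 held no TSS. TNS4, a tensin of focal adhesions, had a region of 13557 bp over its exons, 3343 bp from the nearest TSS, and the region near LINC00592 spanned 10696 bp between genes. Neither was touched by a region labelled H3K27ac under either siRNA, although the second ranked at percentile 99.97 of the list by fold enrichment. The third, near YARS1, was 9444 bp wide with 17.7% and 18.0% under the mark labelled H3K27ac. Wide regions in introns of DIP2B (8990 bp) and MYOF (8932 bp) and one near LINC01698 (8806 bp) were also without it.

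**Figure D3:**
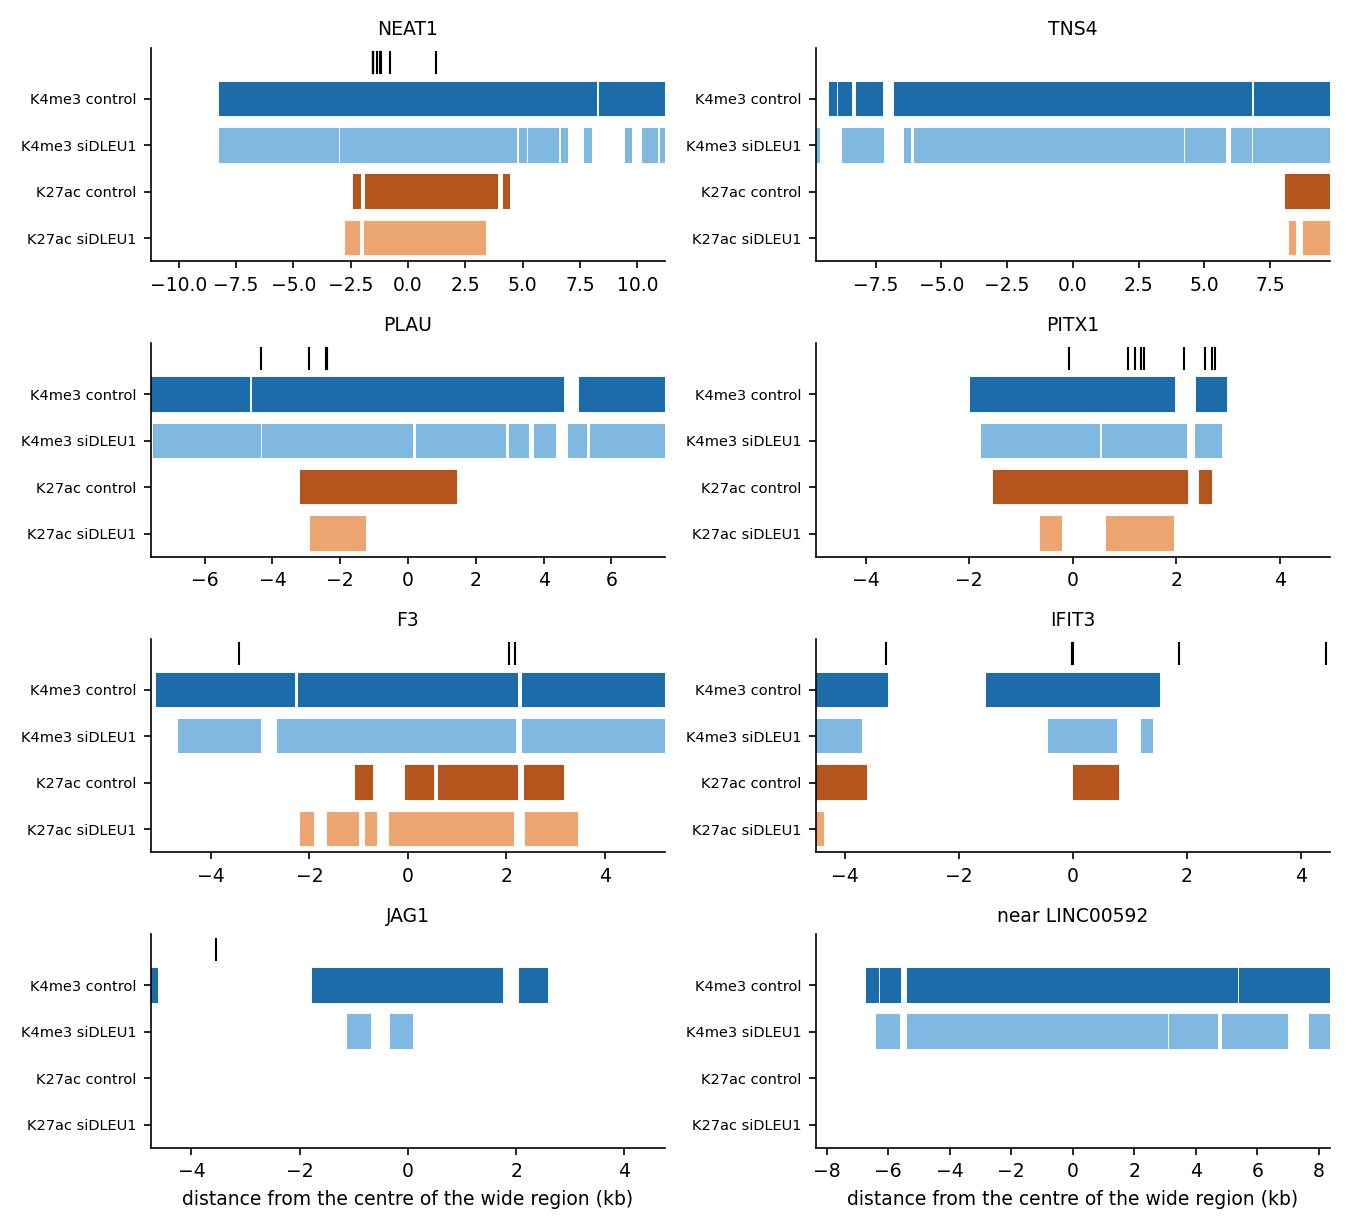
Called regions of the 4 lists, named as labelled, around 8 wide regions, by distance in kb from the centre of the wide region. Black ticks mark annotated TSSs, and regions reaching past the edge of a panel are cut off there. In the panels of TNS4, near LINC00592 and JAG1 no region labelled H3K27ac lies inside the wide region, and at PLAU the region labelled H3K27ac spans 4559 bp in the control and 1597 bp after siDLEU1.

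All 1056 wide regions were overlapped by a siDLEU1 region labelled H3K4me3 (99.6 to 100), against 76.4% of all control regions of that label. In the 2000 to under 3000 bp class it was 99.5%. The median share of bases covered was 90.9% (90.0 to 91.9, interquartile range 80.5 to 96.5). At least 50% of the bases were covered in 97.5% of wide regions, against 70.0% of all control regions. With and without a TSS the medians were 91.6% and 90.2%, and these intervals overlapped.

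After siDLEU1 the wide regions lay about as often under several regions as under one. Under 2 or more siDLEU1 regions lay 519 of them (49.1%, 46.1 to 52.2), against 6.99% of all control regions, which are mostly much narrower, and 36.1% of the 2000 to under 3000 bp class. Of the 1056, 537 had 1 piece, 329 had 2, 145 had 3 and 45 had more. The 778 gaps between pieces had a median of 144.5 bp, and 92.3% of them were at most 500 bp. Most of the uncovered bases, 70.4%, lay at the ends of the wide regions and not between pieces. When siDLEU1 regions at most 1 kb apart were joined, 1.04% of wide regions remained under 2 or more.

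A single siDLEU1 region of at least 3000 bp overlapped 549 wide regions (52.0%, 49.0 to 55.0), against 2.44% of all control regions. The widest overlapping siDLEU1 region had a median of 0.817 times the control width, against 0.839 in the 2000 to under 3000 bp class. Because members were chosen as wide in the control, some narrowing in another list is built in. The mirrored comparison therefore took the 834 siDLEU1 regions of at least 3000 bp and asked for the control. Of these, 99.9% were overlapped, the median cover was 96.7% (96.2 to 97.1), 66.3% (63.0 to 69.4) met a control region of at least 3000 bp, and the width ratio was 0.942. Regions chosen as wide after siDLEU1 thus had a higher median cover by the control list than the reverse. Over the whole lists labelled H3K4me3 the medians went the same way, 79.3% for all control regions and 90.9% for all siDLEU1 regions. With 1 library per siRNA, the intervals cannot show a difference between the siRNAs. Of the regions chosen after siDLEU1, 50.2% lay under 2 or more control regions, close to the 49.1%. The siDLEU1 library labelled H3K4me3 had an estimated 0.783 times the reads of its control, and the part of this depth difference in the widths was not tested.

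**Figure D4:**
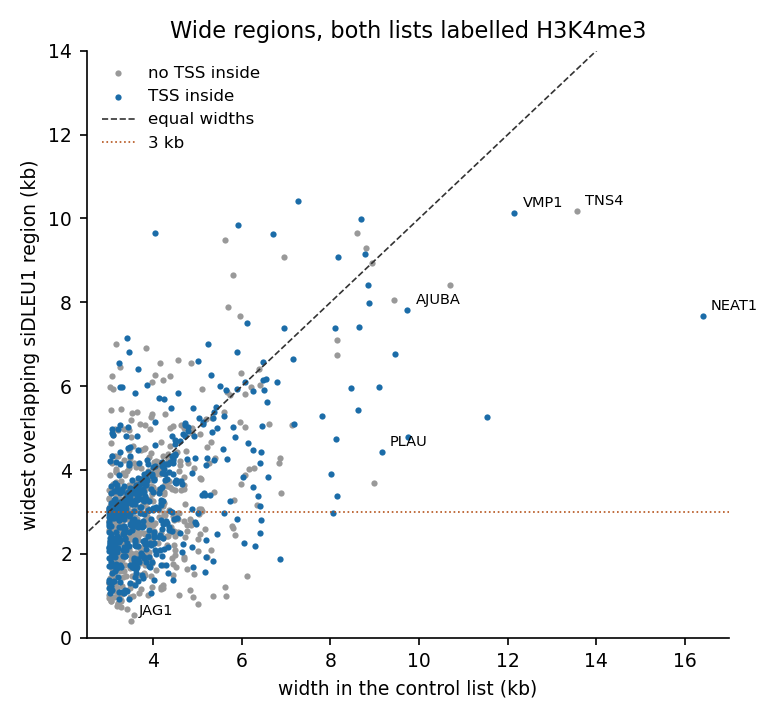
Width of each wide region in the control list against the widest siDLEU1 region overlapping it, both labelled H3K4me3, in kb. Points under the dashed line are narrower after siDLEU1 (828 of 1056), and points under the dotted line have no siDLEU1 region of at least 3 kb. In the 2000 to under 3000 bp class, which is not drawn, 1802 of 2323 were narrower.

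The lowest covers after siDLEU1 were as follows. JAG1, which encodes a Notch ligand, had an intronic region of 3491 bp with the lowest cover, 22.4%, in 2 pieces of which the wider was 393 bp. Its fragments at the summit were 83 in the control and 30 after siDLEU1. Over all wide regions the median ratio of these fragments, siDLEU1 to control, was 0.832, and it was 0.852 over those with a TSS. The region over the TSSs of ATP5PB, a subunit of ATP synthase, and WDR77 was covered to 27.4%. ITPRIP was covered to 30.8%, TKT, which encodes the transketolase of the pentose phosphate pathway, to 34.4%, and a region near PTK2 to 36.96%. None of these 5 exceeded 4441 bp. In the order named, their fold enrichments in the control ranked at percentiles 52.4, 74.7, 85.1, 20.5 and 93.1 of the list, where the median over all wide regions was 94.8. At the other end, 99 wide regions were covered completely. The widest of them were near LINC01698 (8806 bp), at MIR205HG (8786 bp), LINC03061 (8167 bp), UPK2 (7272 bp), which encodes a urothelial membrane protein, and TRIM16 (5912 bp).

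The mark labelled H3K27ac covered less of most wide regions that carried it. After siDLEU1, 436 wide regions (41.3%, 38.4 to 44.3) were overlapped by it, against 27.5% of all control regions labelled H3K4me3. Of the 464 with it in the control, 396 had a smaller share of their bases covered after siDLEU1 and 68 a larger one. This was close to the background, since 84.3% of all control regions labelled H3K4me3 with control H3K27ac-labelled cover had less of it after siDLEU1. Complete loss was seen in 30 of the 464, against 17.5% of all such regions, which are mostly narrower. Over the 498 wide regions with a TSS the median cover was 45.4% in the control and 36.4% (31.9 to 39.2) after siDLEU1. It was split into 2 or more regions in 107 of them in the control and 183 after siDLEU1. In the 2000 to under 3000 bp class with a TSS, of 1096 regions, the medians were 74.5% and 57.8%, and 129 and 321 were split. Over all control regions labelled H3K4me3 with a TSS the medians were 90.1% and 71.3%. The siDLEU1 library labelled H3K27ac had an estimated 1.37 times the reads of its control, and the part of depth in these changes was not tested.

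The mark labelled H3K27ac was also compared by position. In the 232 regions with 1 gene, the TSS was covered in 77.2% in the control and 55.6% after siDLEU1. At 100 bp upstream it was 50% and 27.6%, at 300 bp downstream 85.8% and 82.3%, at 1 kb 73.3% and 62.5%, and at 2 kb 29.3% and 22.8%.

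Among the 5 regions with the largest decrease in cover labelled H3K27ac from control to siDLEU1 were a region near ANXA2R-OT1 (80.2% to 25.1%) and regions at MMRN2 (66.9% to 14.99%), PITX1 (88.7% to 42.1%) and PGAP1 (74.1% to 28.9%). In the same order, 93.4%, 77.3%, 92.8% and 95.2% of their bases were under siDLEU1 regions labelled H3K4me3. PGAP1 encodes an enzyme of GPI anchors. The 5 largest increases were smaller. They were at F3, which encodes tissue factor (55.7% to 79.9%), PLEC, which encodes the cytolinker plectin (28.8% to 46.5%), S100A2 (16.6% to 33.9%), RABGGTB (61.0% to 78.0%) and SET (23.6% to 40.0%).

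Squamous lineage transcription factors had the highest share of genes with a wide region among the 17 gene lists. Among all 10846 genes with a TSS in a control region labelled H3K4me3, 5.36% had one in a wide region. Of the 15 squamous factors with such a region, 6 did (40.0%): TP63, TFAP2A, KLF5, GRHL2, PITX1 and FOXE1. TP63, the master factor of squamous epithelium, had a region of 3686 bp that was fully covered after siDLEU1 by the list labelled H3K4me3. The cover of this region labelled H3K27ac was 88.0% in the control and 68.9% after siDLEU1. TFAP2A had 3 wide regions on its gene, of which 2 held a TSS of it, of 6401 and 5591 bp. The first was covered to 86.4% by siDLEU1 regions labelled H3K4me3, and its cover labelled H3K27ac went from 54.0% to 42.2%, whereas that of the second went from 34.0% to 46.5%. KLF5 (3591 bp) had 67.9% and 67.2%, GRHL2 (4458 bp) 82.5% and 64.9%, and FOXE1 (3838 bp) 95.1% and 90.1% for the mark labelled H3K27ac. Over the 7 regions of this list the median cover by siDLEU1 regions labelled H3K4me3 was 94.6%, against 91.6% over all wide regions with a TSS.

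None of the 6 genes of epithelial to mesenchymal transition and the cadherins with a region had a wide one, and none of the 9 p53 targets. Beside the 5.36% over all genes, these 2 lists had too few genes for their lack of wide regions to be read. Hippo pathway genes had 4 of 11 (AJUBA, AMOTL1, AMOTL2 and YAP1). YAP1, the transcriptional coactivator of the pathway, had a region of 3486 bp with 99.3% of its bases under siDLEU1 regions labelled H3K4me3. Its cover labelled H3K27ac was 89.1% in the control and 70.2% after siDLEU1. Of the tumour suppressors of head and neck squamous carcinoma, 3 of 12 were wide, CDKN2A and FAT1 among them. FAT1, an atypical cadherin, had 96.3% of its region under the mark labelled H3K27ac in the control and 98.7% after siDLEU1. At CDKN2A this cover was lower after siDLEU1, going from 84.6% to 63.9% in a region of 4719 bp and from 80.9% to 65.6% in one of 3014 bp.

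Cancer-related lncRNA genes had 5 of 14 (MALAT1, MIR205HG, MIR31HG, NEAT1 and PVT1), and their wide regions had a median of 9448 bp, where it was 3700 bp over all wide regions with a TSS. Members were chosen by width, and the list was chosen with earlier results of these data known, so this median is a description of 5 genes only. Over all lncRNA genes with a region, 98 of 1372 (7.14%) had a wide one, and over protein-coding genes 483 of 9474 (5.10%). The EGFR family had 1 of 8, EGFR itself, with 3 wide regions on its gene, of which 2 held a TSS of it. Of these 2, the one of 4484 bp had 51.4% of its bases under the mark labelled H3K27ac in the control and 66.5% after siDLEU1. The other, of 3241 bp, had none under either siRNA. TGF-beta genes had 2 of 10 (SMAD3 and TGIF1), MAPK feedback and immediate early genes 2 of 13 (IER2 and KLF6), AP-1 genes 1 of 9 (FOSL2) and NF-kB genes 1 of 9 (NFKBIA). These lists and the EGFR family had too few genes with a region to be set apart from the 5.36% over all genes. The remaining lists were near the background, with 3 of 78 ribosomal protein genes, 3 of 42 replication-dependent histone genes, 1 of 16 H3K4 methylation genes (SETD1B), 1 of 16 acetylation genes (BRD2) and 1 of 15 HOX genes (HOXD11).

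Interferon-stimulated genes had the lowest median cover by siDLEU1 regions labelled H3K4me3 among the lists with a wide region. The authors described lower H3K27ac and H3K4me3 at interferon genes from ChIP-seq of these cells, and the list was chosen with earlier results known. Its rank is therefore a description and no independent support. All 30 listed genes had a TSS in a control region labelled H3K4me3, and 5 had one in a wide region (16.7%): IFIT3, IFITM1, IFITM2, IFITM3 and ADAR. IFIT3, an antiviral tetratricopeptide protein, had a region of 3013 bp. After siDLEU1 45.5% of it was covered by regions labelled H3K4me3, and 15 of the 1056 wide regions had less. Its fragments at the summit were 119 in the control and 61 after siDLEU1, beside the ratio of 0.852 over wide regions with a TSS, and its cover labelled H3K27ac was 25.6% in the control with no region after siDLEU1. IFITM1, IFITM2 and IFITM3 encode restriction factors of virus entry that lie next to each other in near-identical copies, so reads could be shared between them. IFITM1 had a region of 3220 bp that was covered to 58.9%, with 60.6% and 31.2% for the mark labelled H3K27ac. A region of 4878 bp with TSSs of IFITM2 and IFITM1 was covered to 72.9%, with 48.8% and 30.8%. IFITM3 (4181 bp) was covered to 76.7%, with 54.7% and 55.6%, and ADAR (3011 bp), an editor of double-stranded RNA, to 82.5%, with 55.6% and 44.7%. The median over the 5 regions was 72.9%, against 91.6% over all wide regions with a TSS, and 3 of the 5 lay within 13.8 kb at the IFITM genes. Fragments at the summit, control and then siDLEU1, were 239 and 154 at the IFITM1 region of 3220 bp. They were 181 and 154 at the region of 4878 bp, 296 and 257 at IFITM3, and 153 and 118 at ADAR.

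The 30 bases around pairs of GAAA with 2 bases between them are shown because this pattern belongs to the interferon-stimulated response element, a known promoter element of such genes. Matches were searched on both strands in the 200 bases upstream of each TSS, and all of those shown lay inside the wide regions. Capitals mark the match, written along the strand of the gene in GRCh37.
IFIT3, chr10:91092182-91092211: acagattctgTTTCAGTTTCccctcaagag
IFIT3, chr10:91092225-91092254: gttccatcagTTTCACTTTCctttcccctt
IFITM1, chr11:313990-314019: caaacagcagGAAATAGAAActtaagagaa
IFITM3, chr11:320893-320922: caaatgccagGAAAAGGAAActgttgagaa
IFITM3, chr11:320876-320905: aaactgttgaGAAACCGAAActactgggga
ADAR, chr1:154580655-154580684: ccgaggaaacGAAAGCGAAAttgaaccgga
IFIT3 carried the match on the opposite strand, and no match was found upstream of the 12 IFITM2 start sites inside wide regions. Of all 168792 distinct start sites, 2.60% had a match in such a window, and of the 2640 inside wide regions 3.22%. Among the 39 start sites of these 5 genes inside wide regions, many of which share a window, 10 had a match.

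**Figure D5:**
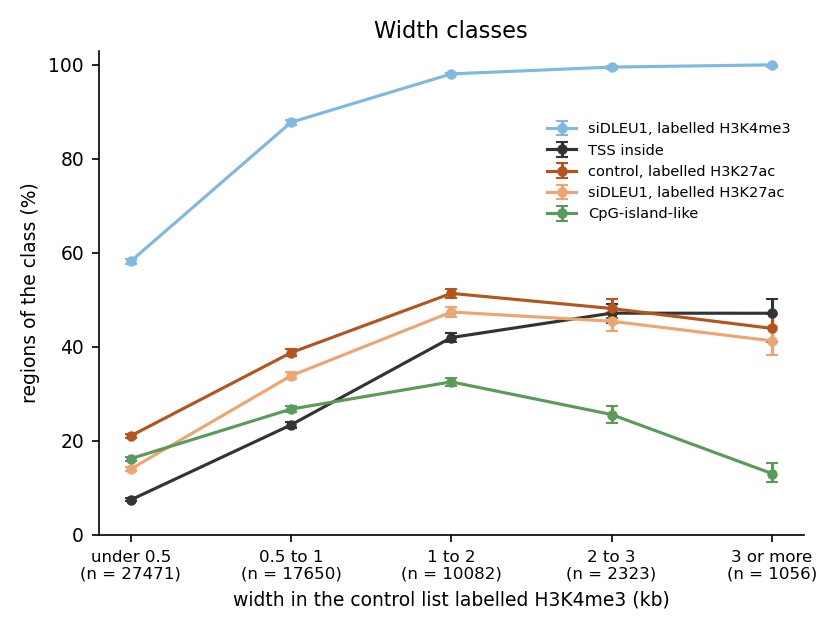
Percent of control regions labelled H3K4me3 in 5 width classes that were overlapped by each of the other lists, held a TSS or were CpG-island-like, with 95% Wilson intervals that cover the counting of regions only. The share overlapped after siDLEU1 rises with width to 100%, the share with a TSS levels off at 47.2%, and CpG-island-like sequence falls to 13.1% in the wide regions.

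Across width classes, location levelled off while sequence did not. The share with a TSS was 7.45% under 500 bp, 23.4% at 500 to under 1000 bp, 42.0% at 1000 to under 2000 bp and 47.2% in both classes above. CpG-island-like sequence was most frequent, at 32.6%, in the 1000 to under 2000 bp class and made up 25.6% at 2000 to under 3000 bp and 13.1% (11.2 to 15.2) in the wide regions. CpG content was averaged over the whole width of each region.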

How the data were processed

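ChIP-seq of HSC3 cells was taken 72 h after siRNA transfection. The authors mapped reads to hg19 with bowtie2, called peaks per library with MACS2 (versions and settings not given in the sources used here) and deposited 4 peak lists. The deposited fold ratio is the enrichment at the summit over local background, with its −log10 p and −log10 q, also from the authors. The deposited score is a display value and was not used. Input libraries were left out.

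hg19 coordinates were read on GRCh37 with GENCODE release 44 (lifted), and TSSs were all transcript starts of 24135 genes with a curated RefSeq transcript. Wide regions span at least 3000 bp. Overlap needs 1 bp, and cover is the percent of a region's bases under another list. Shares have 95% Wilson intervals and medians order-statistic intervals. These cover the counting of regions only. Fragments at the summit were recovered from fold and −log10 p, with all regions matched within 0.005 and 5.02 to 10.2% of a list allowing more than 1 value. Depth was estimated from background and shortest width, assuming that width is the fragment length.

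Regions are named by the gene with a TSS nearest the summit inside, else the gene overlapped, else the nearest. Named are the 10 widest, 5 at each extreme of cover and change, 5 widest without the second mark or a TSS, 3 beside the threshold and listed genes. IRX4, CDK6 and the miRNA genes were named for their sequences after their values were seen. Some regions that meet these rules are not reported here. Members and lists were chosen with earlier results of these data known. Overlap and depth code was tested on simulated data. Python 3.11.15, pandas 2.3.3, scipy 1.17.1 and pysam 0.24.0 were used. Alternatives were another width, joined regions, a stricter q, 50% overlap, equal list lengths and other TSS sets.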

Additional observations from a re-analysis of the deposited data

How the results depend on the processing

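No paired analysis was possible because each siRNA and mark has a single library. Of 46 alternative values, 21 stayed within the intervals given and 25 moved, and the causes were not tested beyond what each setting does by construction. At 4000 bp there were 369 wide regions, with a median of 92.2% of bases covered after siDLEU1 by the list labelled H3K4me3, 68.3% meeting one siDLEU1 region of at least 3000 bp and 60.4% under 2 or more. Joining regions at most 1 kb apart in every list gave 3883 wide regions, of which 99.6% were overlapped after siDLEU1, with a median cover of 85.1%, 63.9% meeting a siDLEU1 region of at least 3000 bp, 15.1% under 2 or more and 52.7% holding a TSS. With a −log10 q of at least 10 in all lists, 99.2% were overlapped, the median cover was 88.3% and 28.7% lay under 2 or more, and the lists labelled H3K27ac overlapped 41.0% in the control and 34.4% after siDLEU1. Asking for 50% of bases gave 97.5% for the siDLEU1 list labelled H3K4me3, and 23.1% and 16.8% for control and siDLEU1 labelled H3K27ac. Joining siDLEU1 regions only, chosen after seeing the data, gave a median cover of 95.4%, 81.3% meeting a region of at least 3000 bp and 1.04% under 2 or more. The share with a TSS was 54.1% within 1 kb, 42.6% for protein-coding genes only, 28.4% with 1 TSS per gene and 51.2% with all GENCODE genes, the last also added later. Equal list lengths moved no value. The part of depth was not tested, and no input signal was used here to set levels between lists.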

Other observations

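Some of the wide regions lay near each other. The same share was not counted for other regions, so it is not shown to be particular to the wide ones. In 168 groups with gaps of at most 50 kb lay 416 of them (39.4%), and 51 groups held 3 or more. The largest group, of 8, spanned 222 kb at ZMYND8, which encodes a reader of histone marks, and NCOA3, a coactivator of nuclear receptors, and none of the 8 was overlapped by a control region labelled H3K27ac. A group of 7 from LINC01698 to MIR205HG held 45.3 kb of wide regions within 81.4 kb, and 1 of the 7 carried that mark. The 7 regions from FAT2, an atypical cadherin of squamous epithelium, to SPARC also had 1 with it. AOPEP had 6 wide regions on its gene, the most of any gene, without the mark labelled H3K27ac in the control, and RXRA, a nuclear receptor, had 5.

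Chromosomes differed in how many of their control regions labelled H3K4me3 were wide. The share was highest on chromosome 10 (2.93% of 2831), chromosome 20 (2.85% of 1893) and chromosome 9 (2.71% of 2914). It was lowest on chromosome X (0.482% of 1452) and chromosome 15 (0.70% of 1858). Copy number of the cell line was not analysed here, and its part in these shares was not tested.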
